A study of Homo sapiens with 18 samples.

Results

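Serum-starved hTERT RPE-1 cells that had received etoposide were compared with cells of the DMSO arm at time point 40 of a transcription block, to describe which RNAs stood higher or lower after etoposide. The comparison used 6 of the 18 RNA-seq libraries of the series, chosen by their titles: 3 labelled etoposide and time point 40, and 3 labelled DMSO and time point 40. hTERT RPE-1 cells come from human retinal pigment epithelium and were immortalised with telomerase. Per the labels, both arms were grown in 10% serum, held for 48 h in 0.1% serum and were in G0/G1. The etoposide arm then received 50 µM etoposide for 30 min. The titles call the other arm DMSO, and the labels give its etoposide treatment as no. Transcription was blocked with 10 µM triptolide, so both groups at time point 40 carry it. The labels give no unit for the time points and do not say whether triptolide had been added at 0. Etoposide against DMSO at 0 and at 20 is given beside the comparison at 40 and shares no library with it.

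Etoposide is a poison of topoisomerase II: it traps the enzyme on the DNA it has cut, which leaves protein-linked breaks and can activate p53. Triptolide blocks initiation by RNA polymerase II through the XPB subunit of TFIIH. Once new synthesis stops, short-lived mRNAs such as those of early-response transcription factors, feedback inhibitors and some p53 targets are lost quickly, while mRNAs of housekeeping and ribosomal proteins persist. AU-rich elements in the 3′ UTR, built on the pentamer ATTTA, are known to speed mRNA decay.

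The 6 libraries held 9103027 to 11426144 counts, and 18455 to 19270 genes had a count. A floor of 3 counts corresponded to 0.263 to 0.33 CPM, the count scaled to a common library total. CPM is relative to the other RNAs of a library, and fewer cells of a type and less RNA per cell cannot be told apart. Replicate 3 stood apart in all groups, since 44 protein-coding genes above 5 CPM in its companions were at 0 there. Outside time point 40, the second DMSO library of time point 0 held high antisense counts and the second etoposide library of time point 20 detected the fewest genes, and results that rest on them are also given without them. Of 12 retinal pigment epithelium markers, 5 averaged at least 1 CPM (BEST1, PMEL, MITF, OTX2 and SERPINF1), RPE65 did not, and TTR, TYR and DCT were at 0. The summed level of that list was 72.5 to 84.8 CPM with etoposide and 70.4 to 90.2 CPM with DMSO. Of 12 mesenchymal and fibroblast markers 9 averaged at least 1 CPM, with sums of 23283 to 26393 CPM with etoposide and 21826 to 23252 CPM with DMSO. FN1 alone averaged 13515 CPM with etoposide and 11272 CPM with DMSO, where the first library had 9155 CPM. The median log2 difference of the 9 tested members was 0.05, and 0 reached an unadjusted p under 0.05 (edgeR). The part of this difference in the results was not tested. Of 10 markers of other epithelia 3 reached that level (KRT8, KRT18 and MUC1), EPCAM, CDH1, KRT5 and KRT14 were at 0, and the sums were 987 to 1724 CPM with etoposide and 1006 to 1655 CPM with DMSO. Blood markers summed to at most 1.35 CPM with etoposide and 0.963 CPM with DMSO.

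At time point 40, 1 gene was called higher with etoposide than with DMSO and 0 lower (edgeR, 282 lower at an unadjusted p under 0.05). The gene was BTG2, an antiproliferative p53 target and early-response gene whose protein binds the CCR4-NOT deadenylase. BTG2 had 7.64, 6.26 and 2.21 CPM (83, 60 and 20 counts) with etoposide, against 0.192, 0.88 and 0.422 CPM (2, 10 and 4 counts) with DMSO. All 3 etoposide libraries lay above all 3 DMSO libraries, and the DMSO library of replicate 1 lay under the floor. The log2 difference was 3.37 (SE 0.45, edgeR adjusted p = 0.0029), and within replicates 1, 2 and 3 it was 4.33, 2.58 and 1.96. BTG2 (ENSG00000159388) lies on the plus strand of chromosome 1 at 203305491 to 203309602 in GRCh38, and no annotated gene overlaps it. The 1 called gene is 0.00705% of the 14186 tested.

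The arms of BTG2 were closer at the other time points. BTG2 averaged 7.45 ± 3.07 CPM with etoposide and 4.21 ± 0.185 CPM with DMSO at 0 (SD, n = 3 each). At 20 it averaged 7.08 ± 3.54 CPM with etoposide and 2.59 ± 0.57 CPM with DMSO, and at 40 it averaged 5.37 ± 2.82 CPM with etoposide and 0.498 ± 0.35 CPM with DMSO. The log2 difference was 0.75 (SE 0.32) at 0 and 1.40 (SE 0.34) at 20, and neither passed. The difference at 40 exceeded that at 0 by 2.62 on the log2 scale (SE 0.57), which did not pass over all genes (interaction, edgeR adjusted p = 0.991).

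The call of BTG2 depended on the model. The edgeR adjusted p was 0.324 without the block and 0.89 from the libraries of time point 40 alone, with log2 differences of 3.39 and 3.38 (with the block in all libraries, the adjusted p was 0.0709 by limma-voom and 7.88e-08 by DESeq2). The call was also lost without the DMSO library of replicate 1 (log2 difference 2.92, adjusted p = 0.118), without replicate 1 in all groups (2.64, adjusted p = 1) and without replicate 2 in all groups (3.95, adjusted p = 0.19).

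**Figure D1:**
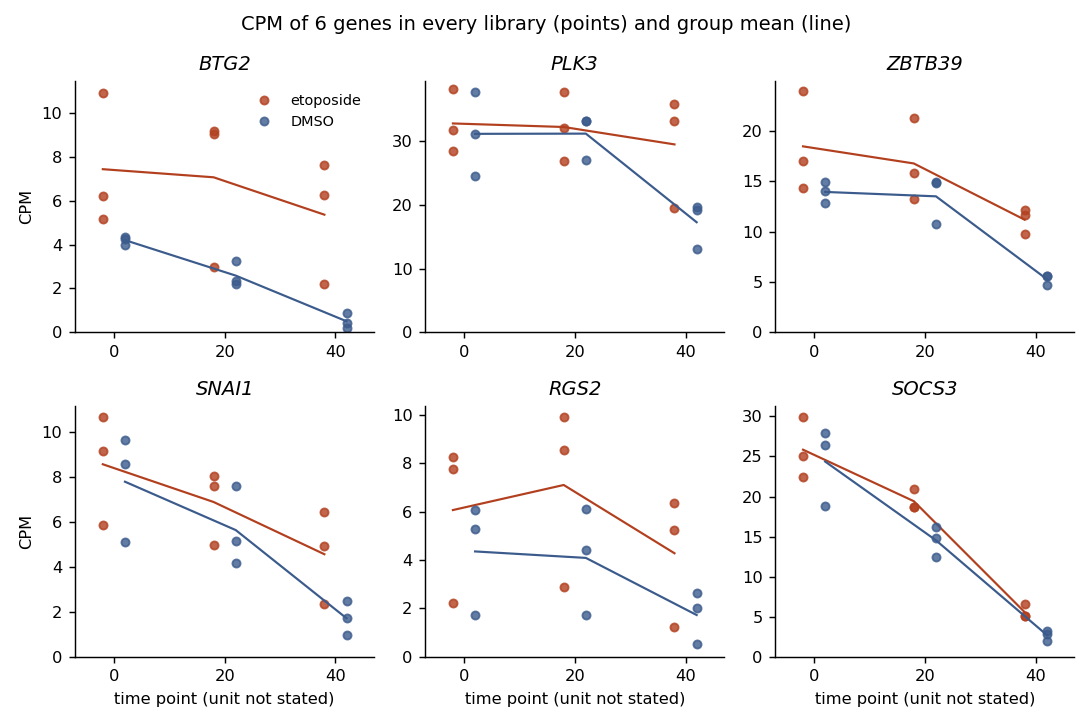
CPM (vertical axis, from 0) at time points 0, 20 and 40 for 6 genes; points are libraries, etoposide left of DMSO, and lines join the means of 3. At 40 the BTG2 libraries stand at 2.21 to 7.64 CPM with etoposide and 0.192 to 0.88 CPM with DMSO, while RGS2 overlaps, its replicate 3 etoposide library being at 1.22 CPM.

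A further 4 genes, all higher with etoposide in all 3 pairs, shared an adjusted p of 0.0501 and were not called. PLK3, a stress-responsive polo-like kinase, had 33.2, 35.9 and 19.5 CPM with etoposide, against 19.6, 19.2 and 13.1 CPM with DMSO. Its groups overlap by 1 library, the third with etoposide, and its log2 difference was 0.76 (SE 0.13). DYNLT4 overlaps PLK3 on the other strand, so its count is uncertain if strand was not used. ZBTB39, which encodes a zinc finger protein with a BTB domain, had 11.7, 12.1 and 9.75 CPM with etoposide, against 4.69, 5.54 and 5.59 CPM with DMSO. Its groups do not overlap, and its log2 difference was 1.08 (SE 0.19).

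SNAI1, a repressor of epithelial genes, had 6.44, 4.91 and 2.33 CPM with etoposide, against 1.72, 2.46 and 0.949 CPM with DMSO, a log2 difference of 1.38 (SE 0.25). RGS2, which shortens signals of G protein-coupled receptors, had 5.24, 6.37 and 1.22 CPM with etoposide, against 2.01, 2.64 and 0.527 CPM with DMSO, a log2 difference of 1.28 (SE 0.23). Both overlap through the third etoposide library, although within replicate 3 etoposide is the higher of the pair. With DMSO, SNAI1 rests on 18, 28 and 9 counts and RGS2 on 21, 30 and 5. At 0 the log2 differences of PLK3, ZBTB39, SNAI1 and RGS2 were 0.08, 0.38, 0.14 and 0.47, and at 20 they were 0.04, 0.31, 0.29 and 0.79. DESeq2 with the block called PLK3, ZBTB39 and SNAI1 besides BTG2 (adjusted p = 0.000858, 0.00197 and 0.0152), and edgeR called PLK3 and ZBTB39 without the pair of libraries of other time points that stood apart.

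The 3′ UTRs of these 5 genes hold ATTTA pentamers, 2 in BTG2, 3 in PLK3, 11 in ZBTB39, 3 in SNAI1 and 2 in RGS2. Such a short word is common, and its share over all genes is not given here. All 9 genes with a 3′ UTR among the 12 largest negative differences hold it too, from 2 in GPR89A to 18 in LCORL. PLK3 holds 2 copies and ZBTB39 1 copy of the longer AU-rich nonamer TTATTTATT. The first nonamer, or the first pentamer where there is none, is shown in capitals in a window of 30 bases from GENCODE release 29 transcripts, 5′ to 3′ on the transcribed strand. PIM1, IER5 and NUAK2 are added as members of the lists described below with 3 overlapping nonamers each, and there the capitals mark all 3 copies. All 3 stood higher with etoposide. PRELID2 and RPS27L also hold 3 nonamers each, stood at −0.69 and −0.19, and are not shown. Among the 12 largest positive differences described below, 3 of 10 genes with a 3′ UTR hold the nonamer. Among the 12 largest negative ones 2 of 9 do. The windows lie in GRCh38 at chr1:203307528-203307557 (plus strand) for BTG2, chr1:44805900-44805929 (plus) for PLK3, chr12:57001263-57001292 (minus) for ZBTB39, chr20:49988617-49988646 (plus) for SNAI1, chr1:192811897-192811926 (plus) for RGS2, chr6:37174985-37175014 (plus) for PIM1, chr1:181092443-181092472 (plus) for IER5 and chr1:205302894-205302923 (minus) for NUAK2.
BTG2: aaatgaagagctATTTAtatatattatttt
PLK3: tggaccacttTTATTTATTgtcagacactt
ZBTB39: acattaatatTTATTTATTtttgtttttgt
SNAI1: gtttcccgggcaATTTAacaatgtctgaaa
RGS2: tggtccaaaagcATTTAaaatcaatagatc
PIM1: tgttatgtatTTATTTATTTATTTATTtgg
IER5: gtgtcttcctTTATTTATTTATTTATTtaa
NUAK2: atttttatttTTATTTATTTATTTATTttt

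The nonamer occurs in 9.57% of the tested protein-coding genes with a 3′ UTR and in 8.16% of all such genes. The median log2 difference was −0.002 over 10977 tested genes with none, −0.033 over 889 genes with 1 and −0.020 over 273 genes with 2 or more. In 3′ UTRs of at least 1000 bases the medians were −0.020, −0.042 and −0.035. An unadjusted p under 0.05 in the positive direction was reached by 159 genes with none (1.45%), 17 with 1 (1.91%) and 10 with 2 or more (3.66%), and in the long 3′ UTRs by 76 (1.19%), 10 (1.29%) and 9 (3.63%). In the negative direction the counts were 215 (1.96%), 22 (2.47%) and 5 (1.83%). The medians of genes with the nonamer were thus not above those without it. Positive genes made up 49.5% of those with none, 42.3% with 1 and 46.5% with 2 or more. What was larger with 2 or more was the share at an unadjusted p under 0.05 in the positive direction, which rests on 10 genes. The difference was not tested. These classes were added after the data had been seen.

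Promoters from 250 bases before to 50 bases after the start were searched on both strands in RefSeq's GRCh38.p14 for 5 motifs. Of 35116 promoters, 6.63% held the p53 response element decamer, 7.71% the AP-1 motif TGANTCA, and 11.5% the TATA box TATAAA. The full CRE palindrome TGACGTCA was in 1.85%, and its first part TGACG, which lies within it, in 24.6%. BTG2 and RGS2 each held 1 such first part and none of the others, and PLK3 and ZBTB39 held none of the 5. SNAI1 was not matched. The search says only that these letters are not in this window.

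**Figure D2:**
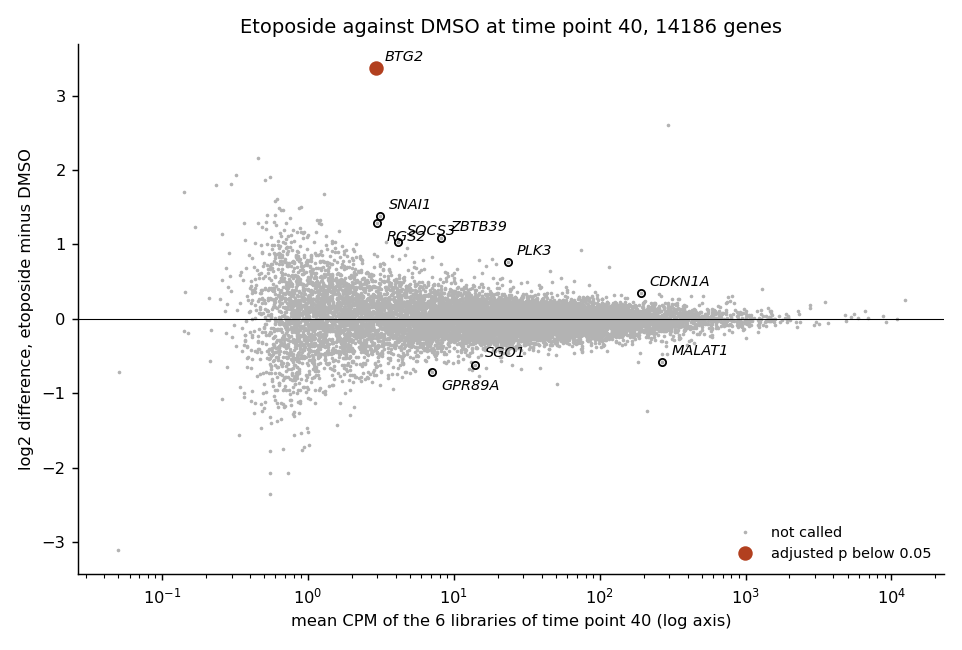
Log2 difference, etoposide minus DMSO (vertical axis), against mean CPM of the 6 libraries (log axis) for 14186 genes; open circles mark other genes named in the text. BTG2 is the 1 gene past the threshold, at 3.37.

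Over all 14186 genes, differences were small and split evenly. The median log2 difference was −0.005, with 6932 genes positive and 7254 negative. An unadjusted p under 0.05 was reached by 216 genes higher with etoposide (1.52%) and 282 lower (1.99%), or 498 in all (3.51%). Groups that did not overlap numbered 374 genes higher (2.64%) and 209 lower (1.47%) with etoposide, or 583 in all (4.11%). For lower genes, DESeq2 and limma-voom with the block also called 0. Gene by gene, the differences within pairs were nearly unrelated, with correlations across genes of −0.032, −0.019 and 0.077 between pairs 1 and 2, 1 and 3, and 2 and 3 (10814 genes with a mean of at least 5 CPM, which come from the same libraries and are not independent).

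Among genes with a mean of at least 5 CPM, an unadjusted p under 0.05 and the same sign in all pairs, the 12 largest positive log2 differences ran from 0.66 to 1.08 and include ZBTB39 and PLK3. The other genes of these described here had edgeR adjusted p of 0.628 to 0.996. The AP-1 subunit gene JUNB stood at 0.80 (SE 0.26) and overlaps HOOK2 on the other strand. IER5L, at 0.83 (SE 0.35), overlaps its antisense gene IER5L-AS1. NFKBIA, which holds NF-kB in the cytoplasm, stood at 0.71 (SE 0.17) and its relative NFKBIZ at 0.67 (SE 0.19). GDNF, a neurotrophic factor gene, and ABCG2, a drug efflux transporter gene, stood at 0.69 each (SE 0.30 and 0.22), with pair 3 at 0.01 and 0.14, and GDNF overlaps GDNF-AS1. The microRNA hosts MIR34AHG and MIR23AHG stood at 0.74 (SE 0.25) and 0.66 (SE 0.30), and both overlap a gene of the other strand. In CPM the groups overlap for JUNB, NFKBIA, NFKBIZ, ABCG2 and MIR23AHG, and do not for IER5L, GDNF and MIR34AHG.

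The 12 largest negative differences, by the same rule, ran from −0.58 to −0.72 and all had an edgeR adjusted p of 0.996. RADX, which encodes a single-stranded DNA-binding protein of replication forks, had 4.05, 3.97 and 4.21 CPM with etoposide, against 6.32, 5.45 and 8.43 CPM with DMSO (−0.70, SE 0.24). PRELID2 had 5.06, 5.85 and 4.98 CPM with etoposide, against 9.58, 8.62 and 7.38 CPM with DMSO (−0.69, SE 0.20). SGO1, which protects centromeric cohesion, had 9.29, 10.7 and 13.6 CPM with etoposide, against 17.5, 16.1 and 17.4 CPM with DMSO (−0.62, SE 0.17). All 3 have groups that do not overlap, and SGO1 overlaps the antisense gene SGO1-AS1.
Lower values of this size were also given by GPR89A (−0.72, SE 0.24), MB21D2 (−0.68, SE 0.27), LCORL (−0.64, SE 0.19), ZNF107 (−0.60, SE 0.23), MIR222HG (−0.59, SE 0.24), UMAD1 (−0.59, SE 0.18) and SCHIP1 (−0.58, SE 0.19). The ribosomal protein pseudogenes RPL21P16 and RPL6P27 (−0.68, SE 0.30 and −0.67, SE 0.20) are uncertain because their reads can come from the parent gene. The third DMSO library of GPR89A had 15.4 CPM, against 6.03 and 5.63 CPM in the first and second, and its pair 2 stood at −0.11. LCORL overlaps NCAPG and UMAD1 overlaps RPA3 on the other strand. ZNF107 overlaps MIR6839 and SCHIP1 overlaps IQCJ-SCHIP1 on the same strand, so these counts are uncertain too.

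**Figure D3:**
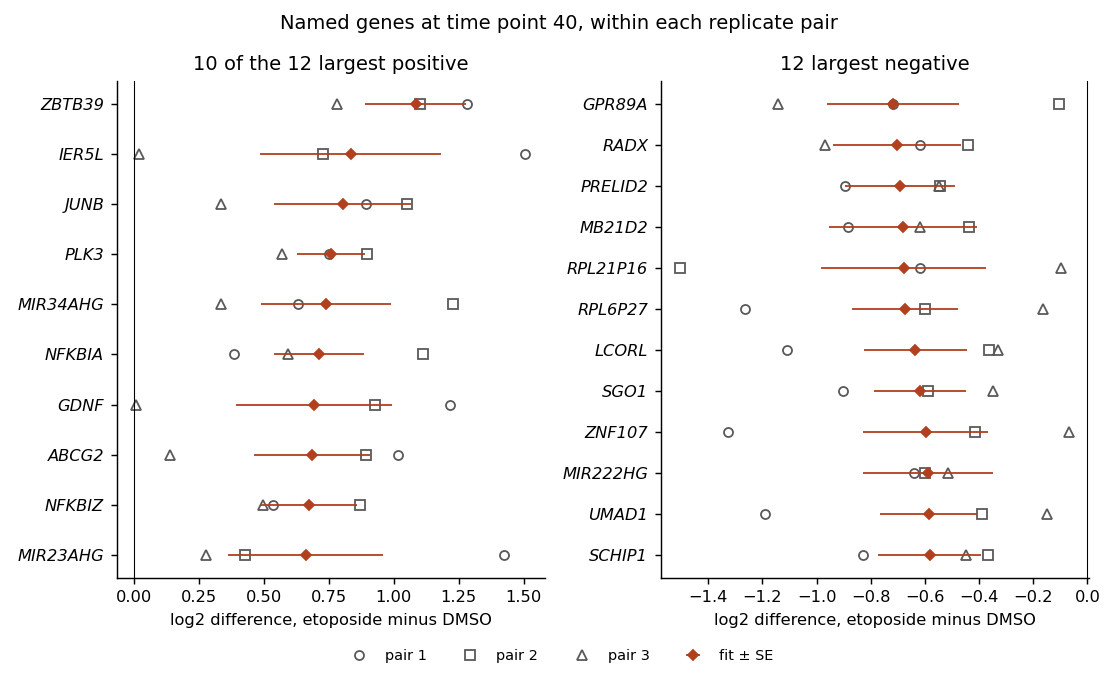
Log2 differences, etoposide minus DMSO (horizontal axis), of 10 of the 12 largest positive and the 12 largest negative genes; open symbols are replicate pairs 1 to 3, diamonds the fit with its SE. GDNF and IER5L have a pair near 0 (pair 3, 0.01 and 0.02), and the rule of choice fixes the sign in all pairs.

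These genes were chosen by their size at 40, so smaller values at other times follow from the choice. Of the 12 positive genes 9 were positive at 0 and 11 at 20, with medians of 0.11 and 0.16 against 0.75 at 40. Of the 12 negative genes 8 were negative at 0 and 10 at 20, with medians of −0.07 and −0.18 against −0.65 at 40; MIR222HG was further from 0 at 20 (−0.75) than at 40 (−0.59). Among the 216 genes higher at 40 by unadjusted p, 65.3% were positive at 0 and 50.0% at 20; among all genes positive at 40 the shares were 51.9% and 41.9%. Among the 282 lower genes 63.8% were negative at 0 and 41.8% at 20, against 54.1% and 41.5% of all genes negative at 40, and their median at 20 was 0.02. At 0 and at 20 edgeR called 0 genes in either direction, with 426 higher (3%) and 456 lower (3.21%) at an unadjusted p under 0.05 at 0 (882, 6.22%) and 158 higher (1.11%) and 197 lower (1.39%) at 20 (355, 2.5%). limma-voom called 0 at both, and DESeq2 called 2 higher and 10 lower at 0 and 0 at 20. For the difference between 40 and 0, edgeR, DESeq2 and limma-voom called 0, and at an unadjusted p under 0.05 edgeR had 262 genes positive (1.85%) and 223 negative (1.57%), 485 in all (3.42%).

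The early transcription factors had the largest median of the gene lists examined. Of 41 tested members 37 were positive and 4 negative, and 0 were called. An unadjusted p under 0.05 was reached by 10 higher (24.4%) and 0 lower, against 1.52% and 1.99% over all genes. The median log2 difference was 0.27, against −0.005 over all genes, and 0.30, 0.38 and 0.08 within pairs 1, 2 and 3. It was −0.03 at both 0 and 20. The list was chosen with results of these data known and is a description. SNAI1 led it, followed by IER5L and JUNB (values above). IER5, an early-response gene, had 53.3, 61.6 and 49.1 CPM with etoposide, against 34.9, 39.3 and 42.8 CPM with DMSO (0.49, SE 0.13), without overlap. IER2 stood at 0.49 (SE 0.14) and CSRNP1 at 0.46 (SE 0.15), and both overlap a gene of the other strand. FOS stood at 0.34 (SE 0.44), JUN at 0.29 (SE 0.14) and MYC at 0.20 (SE 0.14).

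Feedback inhibitors of signalling were mixed, with 42 of 46 members tested, 23 of them positive and 19 negative, and a median of 0.11. Those at an unadjusted p under 0.05 were 9 higher (21.4%) and 1 lower (2.38%), against 1.52% and 1.99% over all genes. Within pairs 1, 2 and 3 the median was 0.12, 0.21 and −0.05, and it was 0.053 without the DMSO library of replicate 1 and 0.061 without replicate 2. Besides RGS2, the cytokine signalling inhibitor SOCS3 had 5.06, 6.58 and 5.09 CPM with etoposide, against 2.01, 2.9 and 3.27 CPM with DMSO (1.03, SE 0.23), without overlap. The short-lived kinase genes had 14 of 19 positive and a median of 0.10. By unadjusted p under 0.05, 5 were higher (26.3%) and 2 lower (10.5%), beside the same shares over all genes. PIM1, a survival kinase, had 17.2, 15.5 and 16.7 CPM with etoposide, against 9.48, 11.3 and 12.7 CPM with DMSO (0.57, SE 0.13), without overlap. SGK1 stood at 0.49 (SE 0.15) and NUAK2 at 0.94 (SE 0.32). NUAK2 rests on few counts, 32, 29 and 19 with etoposide and 14, 18 and 12 with DMSO.

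Of 46 p53 targets 45 were tested, of which 28 were positive and 17 negative, with BTG2 called and a median of 0.04. An unadjusted p under 0.05 was reached by 7 higher (15.6%) and 0 lower, against 1.52% and 1.99% over all genes. Within pairs 1, 2 and 3 the median was 0.002, 0.16 and −0.02, and without replicate 2 it was −0.02. BBC3, which encodes the BH3-only protein PUMA, had 7.27, 7.94 and 3.77 CPM with etoposide, against 2.39, 3.87 and 3.48 CPM with DMSO (0.95, SE 0.28). CDKN1A, the cell cycle inhibitor p21, had 219, 262 and 163 CPM with etoposide, against 167, 179 and 154 CPM with DMSO (0.34, SE 0.10). The groups of BBC3 and of CDKN1A each overlap through the third etoposide library. As genes, CDKN1A overlaps DINOL on the other strand, and BBC3 overlaps MIR3191 on its own strand and MIR3190 on the other. Their counts are therefore uncertain. MDM2, the ubiquitin ligase of p53, stood at −0.25 (SE 0.14). Among BTG2's relatives, TOB1 stood at 0.26 (SE 0.14), TOB2 at 0.21 (SE 0.11) and BTG3 at −0.10 (SE 0.13), with 3 of 5 tested family members positive. TOB1 and BTG3 overlap their antisense genes TOB1-AS1 and BTG3-AS1.
NF-kB targets had 19 of 27 positive and a median of 0.09, NFKBIA and NFKBIZ having the smallest p, and 0 called. Integrated stress response genes had 13 of 19 positive and a median of 0.05. SESN2 stood at 0.55 (SE 0.19) and CHAC1 at 0.81 (SE 0.34), with pair 1 at 1.42 and 1.41 and SESN2 at −0.01 in pair 3. CHAC1 held 11, 37 and 9 counts with DMSO. AU-rich element binding proteins, which promote or block decay, had 6 of 15 positive, 9 negative and a median of −0.02. ZFP36 stood at 0.85 (SE 0.38), with 1.94, 0.30 and 0.30 within pairs 1, 2 and 3, and held 13, 46 and 9 counts with DMSO. ZFP36L2 stood at 0.43 (SE 0.13, pair 3 at −0.007) and ZFP36L1 at 0.28 (SE 0.12). For each of these genes the CPM of the groups overlap. RC3H1 stood at −0.33 (SE 0.16) and was negative in all pairs. Genes of general mRNA decay had 14 of 35 positive and a median of −0.02.

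The targets of the drug and the m6A machinery showed no called gene. TOP2A stood at −0.12 (SE 0.14) and TOP2B, which encodes the topoisomerase II of non-dividing cells, at −0.05 (SE 0.13); 6 of 17 genes of topoisomerases and adduct repair were positive, with a median of −0.04. METTL3 and METTL14, the methyltransferase pair that writes N6-methyladenosine, stood at 0.12 (SE 0.11) and 0.11 (SE 0.12), METTL3 with 0.42, −0.06 and 0.01 in pairs 1, 2 and 3. Of 23 m6A genes 7 were positive, with a median of −0.07 and 1 lower at an unadjusted p under 0.05 (4.35%, against 1.99% over all genes). Double-strand break repair genes had 9 of 26 positive and a median of −0.06, BARD1 standing at −0.38 (SE 0.15).

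Proliferation genes leaned lower, with 25 of 30 negative and a median of −0.09. By unadjusted p under 0.05, 3 were lower (10%) and 0 higher, against 1.99% and 1.52% over all genes. AURKA, the mitotic kinase, stood at −0.32 (SE 0.11), KIF11 at −0.30 (SE 0.13) and CCNB1 at −0.25 (SE 0.10). The list was also lower at 0 (median −0.16) and not at 20 (0.04). Cytosolic ribosomal protein genes had 70 of 84 negative and a median of −0.05, against −0.11 at 0 and −0.04 at 20; within pairs 1, 2 and 3 it stood at −0.15, −0.02 and 0.03. Stable housekeeping genes had 14 of 28 positive and a median of −0.01.

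**Figure D4:**
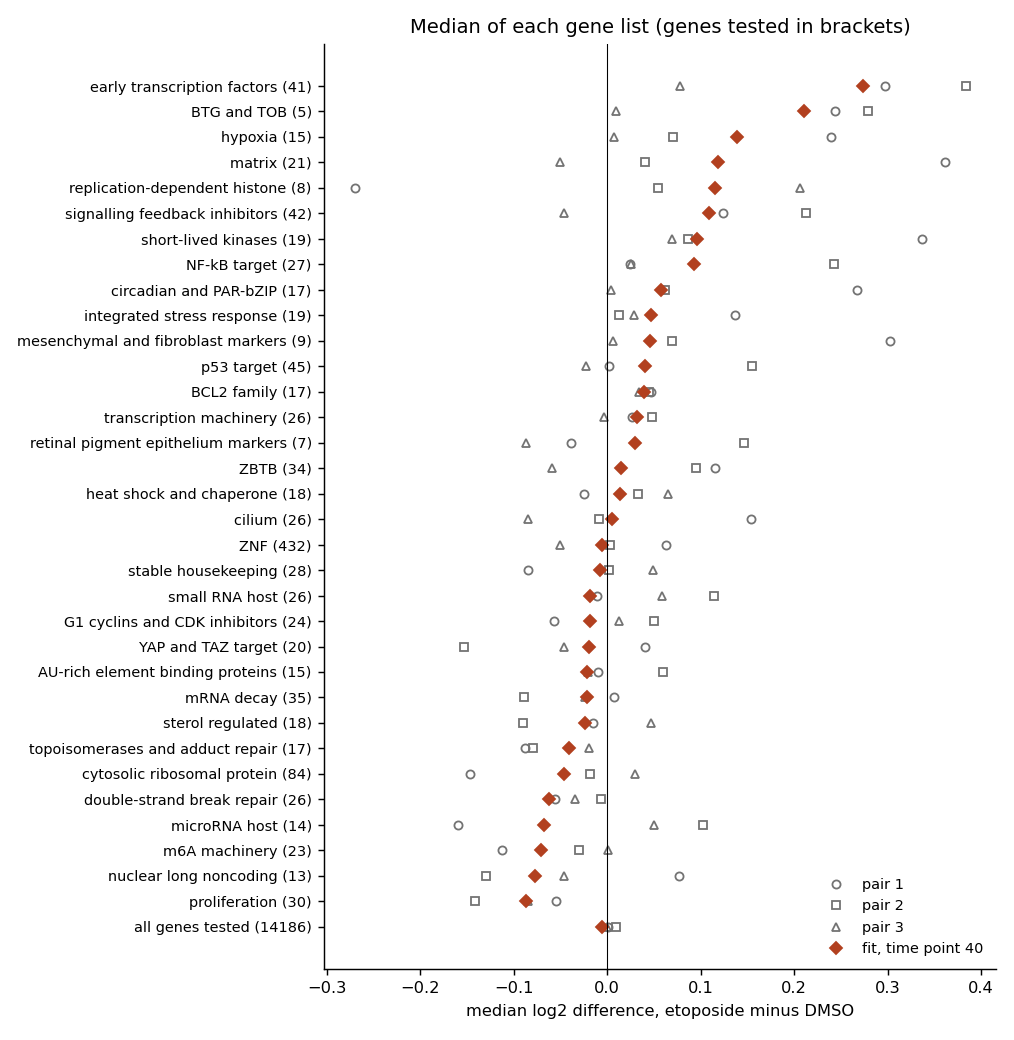
Median log2 difference, etoposide minus DMSO (horizontal axis), of each gene list with at least 5 tested genes; diamonds are the fit and open symbols the 3 pairs. Early transcription factors lead at 0.27, and their pair 3 stands at 0.08.

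Grouped by gene length, shorter coding genes stood slightly higher and longer ones slightly lower at 40, the reverse of 0 and 20. In 5 classes from shortest to longest (bounds 11267, 24744, 47402 and 102001 bp), the medians were 0.040, 0.018, −0.009, −0.035 and −0.032 at 40, −0.076, −0.032, −0.009, 0.026 and 0.058 at 0, and −0.071, −0.028, 0.004, 0.045 and 0.060 at 20. At an unadjusted p under 0.05 the shortest class held 78 of 2436 genes higher (3.20%) and 25 lower (1.03%), against 1.52% and 1.99% over all genes. The longest held 11 of 2435 higher (0.45%) and 50 lower (2.05%), the lower share being near that over all genes. The longest class's median was −0.007 without either the second or the third DMSO library and −0.069 without the first. Within pair 1 the longest class stood at 0.036, against −0.068 and −0.044 in pairs 2 and 3.

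**Figure D5:**
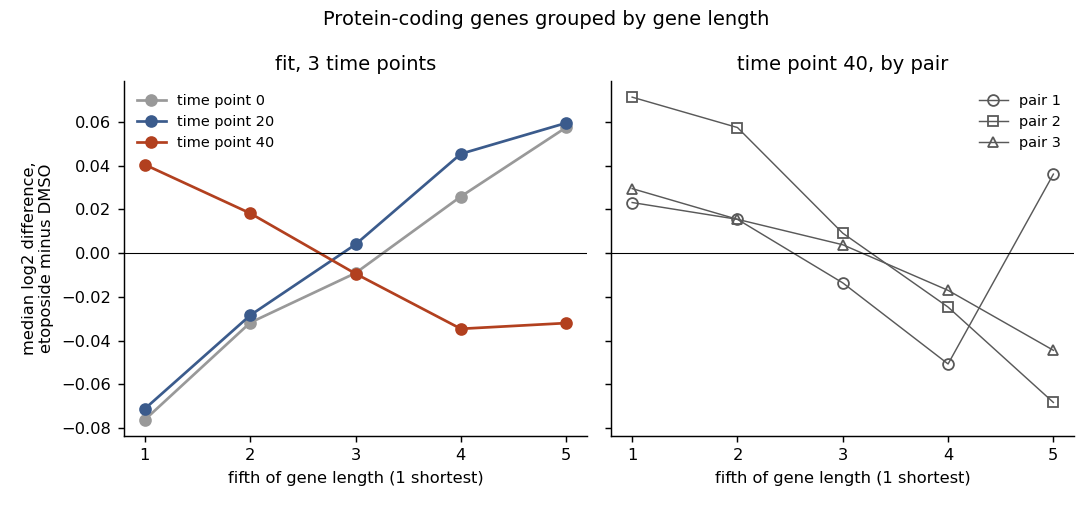
Median log2 difference, etoposide minus DMSO (vertical axis), in 5 classes of gene length (1 shortest) at time points 0, 20 and 40 and, at 40, by pair. At 40 the medians run from 0.040 to −0.032; pair 1 turns up to 0.036 in the longest class.

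Genes were also grouped by their change from 0 to 20 with DMSO, which shares no library with the comparison at 40. Of 120 genes with a DMSO change of −1 or less, 59 are antisense genes and 36 protein coding, and the median at 40 was 0.06; the membership rests largely on the second DMSO library at 0. From a fit without the pair of libraries that stood apart it held 21 genes, with a median of −0.02, BTG2 and DUSP1 among them. The class from −1 to −0.5 had a median of 0.05 over 272 genes, 10 higher (3.68%) and 1 lower (0.37%) at an unadjusted p under 0.05, against 1.52% and 1.99% over all genes. Without those libraries it held 206 genes with a median of 0.06, of which 4 were higher (1.94%) and 1 lower (0.49%). The other classes stood between −0.02 and 0.05.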

How the data were processed

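RNA of hTERT RPE-1 cells was sequenced in 18 libraries (a TruSeq Stranded mRNA kit, per the labels). Per gene, raw counts were deposited, which the authors made with bcl2fastq, HISAT2 and featureCounts on GRCh38 (hg38), per the submitters' processing notes. Tool versions, annotation and strand setting: not given in the sources used here. The files list 58051 gene identifiers, of which 57447 matched GENCODE 29; mitochondrial genes had 0 counts. Groups and replicate numbers came from the titles. The labels call the replicates independent and do not say what was separate, so p-values speak only for these samples. They rest on the spread left in all 18 libraries after the block described below, with estimates of spread shared across genes.

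Counts were tested with edgeR 4.0.16 (R 4.3.3, robust quasi-likelihood F test, TMM factors 0.978 to 1.02) in one model of 6 groups with the replicate number as a block, on 14186 genes that passed edgeR's default filter and held 99.84% of the counts. A gene was called at a Benjamini-Hochberg adjusted p below 0.05. SE is the log2 difference divided by the root of F. Pair differences are log2 CPM (prior count 2), etoposide minus DMSO within a number. The numbers were used as pairs because all 45 pairs of same-numbered libraries deviated together (correlations 0.464 to 0.961 over 10814 genes). Deviations were taken from each group's mean, so replicate 3 standing apart also makes the other numbers deviate together. The correlations therefore cannot show that numbers 1 and 2 were matched. Those between differently numbered libraries are not given here. On simulated counts for this comparison over 14186 genes, 93 of 100 genes changed by 1 and 98 of 100 changed by 2 (log2) were recovered. Another 5 unchanged genes were called. The changed genes were drawn from those with a mean of at least 5 CPM, which leaves BTG2 out. With many planted changes the adjusted threshold is easier to pass than with 1 call, so these shares do not give the power in the real data. Alternatives used DESeq2 1.42.0, limma 3.58.1, other scalings, filters and left-out libraries. Genes were named where called, where among the 12 largest differences in each direction, or for up to 4 members of each of 35 lists, plus 11 check genes. HMGA2, HJURP and CKS1B, and the libraries and windows singled out, were chosen after their values were seen. The comparison, members and lists were chosen with earlier results of these data known. Some genes that the rule gives are not reported here. Figures used matplotlib 3.10.9.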

Additional observations from a re-analysis of the deposited data

How the results depend on the processing

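The count at 40 depends on the replicate block, the libraries fitted and the tool. Without the block 0 genes were called higher (76 at an unadjusted p under 0.05), and from the libraries of time point 40 alone 0 with the block (226) and 0 without it (55), against 1 with the block in all libraries. The cause was not tested. Genes called higher at 40 numbered 0 with limma-voom, 0 with a mean of at least 5 CPM (which leaves BTG2 out), 4 with DESeq2, 14 without a filter and 3 without the pair of libraries that stood apart. Without a filter 9 were called lower at 40, 46 higher and 371 lower at 0, 2 higher and 3 lower at 20, and 104 higher and 4 lower in the interaction. DESeq2 called 2 higher and 10 lower at 0, and without the pair of libraries 1 was lower at 20. Leaving out libraries or replicates gave 0 to 2 genes higher and 0 lower at 40, 0 to 1 higher and 0 to 1 lower at 0, 0 to 1 higher at 20 and 0 in the interaction.

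Over left-out libraries and replicates, the median of the proliferation list ran from −0.147 to −0.042, of the DMSO class of −1 or less from −0.294 to 0.393, of the class from −1 to −0.5 from −0.0023 to 0.117, of the shortest genes from 0.025 to 0.068 and of the longest from −0.069 to −0.007. The medians of early transcription factors, feedback inhibitors and p53 targets ran from 0.187 to 0.353, 0.053 to 0.131 and −0.022 to 0.087. In the same fits TOP2B ran from −0.083 to 0.0018 and METTL3 from −0.015 to 0.215; both changed sign without replicate 1. DMSO values of BTG2 rest on 2 to 10 counts, so depth limits its fold. In all, 2736 alternative values kept direction and side of the threshold, 7 lost a call, 16 gained one, 96 moved and 2 reversed.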

Other observations

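Other gene groups had 0 called members and medians within 0.14 of 0. Hypoxia-induced genes had 10 of 15 positive with a median of 0.14, led by ADM, the adrenomedullin gene, which had 26.7, 32.7 and 25.8 CPM with etoposide, against 19.5, 19.4 and 21.0 CPM with DMSO (log2 0.51, SE 0.15, adjusted p = 0.996) without overlap. Matrix genes had 15 of 21 positive and a median of 0.12, but 0.36, 0.04 and −0.05 within pairs 1, 2 and 3. Circadian genes had 13 of 17 positive (median 0.06), BCL2 family genes 11 of 17 (0.04), transcription machinery genes 14 of 26 (0.03), heat shock genes 10 of 18 (0.01), ZBTB genes 18 of 34 (0.02), cilium genes 13 of 26 (0.01), ZNF genes 214 of 432 (−0.01), small RNA hosts 13 of 26 (−0.02), sterol-regulated genes 9 of 18 (−0.02), G1 cyclins and CDK inhibitors 11 of 24 (−0.02), YAP and TAZ targets 8 of 20 (−0.02), microRNA hosts 5 of 14 (−0.07), nuclear long noncoding RNAs 4 of 13 (−0.08) and replication-dependent histones 6 of 8 (0.12). SNHG1, a small RNA host, had 90.3, 91.9 and 53.7 CPM with etoposide, against 60.0, 62.5 and 42.0 CPM with DMSO (0.51, SE 0.12), and overlaps small nucleolar RNA genes on its own strand.

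MALAT1 had 169, 124 and 279 CPM with etoposide, against 128, 141 and 774 CPM with DMSO. MALAT1 was singled out after its values were seen, and it overlaps annotated genes on both strands. HMGA2, HJURP and CKS1B had the smallest p of the lower genes with a symbol, at log2 differences of −0.47, −0.38 and −0.36 (edgeR adjusted p = 0.82, 0.996 and 0.996).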
